A study of Mus musculus with 41 samples.

Results

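The nuclear genes for the proteins of the mitochondrial ribosome, named Mrpl for the large subunit and Mrps for the small one, were followed in mouse microglia, the resident macrophages of the brain, as these cells left the brain and stayed in culture. Members were the rows of the read-count table whose symbol begins with Mrpl or Mrps and a number and is not marked as a pseudogene. This gave 78 genes of 24537 symbols, 49 named Mrpl and 29 named Mrps, spread over 17 chromosomes. Poly(A) RNA of C57Bl6 mice was sequenced in 21 libraries. They comprised 5 of live CD11b+ CD45Low microglia sorted straight from the brain (ex vivo), 2 of sorted microglia cultured for 6 h, 3 cultured for 24 h, 2 cultured for 7 d with IL-34 and TGFβ, 5 cultured for 7 d with IL-34 alone, and 4 of brain lysate. All cultured cells were kept in DMEM/F12 with 5% fetal bovine serum and given IL-34, on which microglia depend for survival, every day. The label of replicate 2 at 24 h gives 22 h. The sources used here do not give the age and sex of the mice, how many were pooled per library or whether libraries of a group came from separate mice or wells. The p-values therefore measure the spread between these libraries, which may be technical.

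Mitochondrial DNA encodes a small set of respiratory chain subunits together with the ribosomal RNAs and transfer RNAs needed to translate them, while every protein of the mitochondrial ribosome is encoded in the nucleus, made in the cytosol and imported. The ribosome is assembled from a large subunit that forms peptide bonds and a small subunit that decodes the messenger RNA, and it needs dedicated assembly factors, translation factors and aminoacyl-tRNA synthetases. Many nuclear genes for mitochondrial proteins carry binding sequences of ETS factors such as GABP, of NRF1 or of YY1 near their starts. In mammals Mrps18a and Mrps30 belong to the large subunit in spite of their names.

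Libraries held 11584561 to 28841472 counted reads, and replicates of a group had pairwise Pearson correlations of log CPM between 0.969 and 0.996 across genes. The summed level of 8 microglia markers was 41540 to 49460 CPM (counts scaled to library size) ex vivo, 3795 to 10720 CPM in culture without TGFβ, 15890 to 17620 CPM with TGFβ and 293 to 383 CPM in brain lysate. Summed markers of 10 neuronal genes stood at 10.5 to 60.4 CPM ex vivo, against 18100 to 19910 CPM in lysate. Ex vivo replicate 3 had the highest sums of the ex vivo libraries for neurons, astrocytes, oligodendrocytes and choroid plexus. Neutrophil markers summed to 181.5 and 170.5 CPM in ex vivo replicates 2 and 3, against 3.22 to 36.4 CPM in the other ex vivo libraries. Monocyte markers summed to 64.3 and 53.2 CPM there, against 6.15 to 12.1 CPM. Border macrophage markers summed to 7.65 to 115.7 CPM ex vivo and 54.8 to 119.7 CPM at 7 d. With TGFβ they summed to 8.54 and 8.53 CPM. Mrc1 made up most of the 7 d sum, with means of 61.6 CPM at 7 d and 37.6 CPM ex vivo. Pf4 followed with 14.8 CPM at 7 d and 0.766 CPM ex vivo. F13a1, Cd163, Lyve1 and Cbr2 had lower means at 7 d (1.58, 0.983, 0.0446 and 0.978 CPM) than ex vivo (7.01, 3.32, 2.07 and 1.31 CPM). The 7 d libraries differed in a list of 22 proliferation genes, whose summed level was 409, 1644, 814, 618 and 254 CPM in replicates 1 to 5, and 678 and 2172 CPM in the 7 d libraries with TGFβ. Summed markers of astrocytes stood at 1.67 to 20.1 CPM over all cultured libraries, against 172 to 381 CPM ex vivo. Most of the ex vivo sum was Slc1a3, with a mean of 190.6 CPM, followed by Slc1a2 with 32.5 CPM. Ex vivo means of the other astrocyte markers lay between 0.544 CPM (Sox9) and 3.59 CPM (Atp1b2). The list of 5 oligodendrocyte precursor markers summed to 73.1 to 80.8 CPM at 6 h, against 1.57 to 4.06 CPM ex vivo. Nearly all of it was Cspg4, with a mean of 76.3 CPM at 6 h and 0.439 CPM ex vivo, while Pdgfra and Olig1 were at 0 at 6 h and Olig2 and Vcan had means of 0.0234 and 0.651 CPM. The part of other cells in the results was not tested. In bulk RNA, fewer cells of a type and less RNA per cell cannot be told apart.

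Starts of 69 of the 78 genes could be matched by symbol to a table of RefSeq promoters (GRCm38.p6, which has the coordinates of mm10), running from 250 bases before to 50 after the start. The windows of 6 members whose changes are described below are shown, each read 5′ to 3′ on the strand of its gene. They differ in which of the 3 motifs they hold, and each holds a motif. Those of Mrpl12 and Mrpl20, also described below, held none of the 3 and are not shown. Capitals mark CCGGAAG (the ETS core), GCGCATGC (the NRF1 core) and AAGATGGC (the YY1 core) on either strand.
Mrpl33 (chr5:31613701-31614000, plus strand): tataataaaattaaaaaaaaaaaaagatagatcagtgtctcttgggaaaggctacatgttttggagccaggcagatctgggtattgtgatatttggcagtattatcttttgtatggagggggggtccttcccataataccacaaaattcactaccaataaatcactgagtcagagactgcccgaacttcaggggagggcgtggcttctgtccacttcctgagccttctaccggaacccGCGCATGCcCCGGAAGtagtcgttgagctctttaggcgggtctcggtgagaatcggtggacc
Mrps21 (chr3:95871465-95871764, minus strand): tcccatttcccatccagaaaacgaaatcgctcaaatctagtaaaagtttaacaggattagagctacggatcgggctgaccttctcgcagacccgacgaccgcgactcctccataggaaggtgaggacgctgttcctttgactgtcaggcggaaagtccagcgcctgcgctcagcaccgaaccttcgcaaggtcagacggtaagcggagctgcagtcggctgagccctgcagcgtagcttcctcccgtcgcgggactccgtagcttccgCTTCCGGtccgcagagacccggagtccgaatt
Mrps18b (chr17:35916391-35916690, minus strand): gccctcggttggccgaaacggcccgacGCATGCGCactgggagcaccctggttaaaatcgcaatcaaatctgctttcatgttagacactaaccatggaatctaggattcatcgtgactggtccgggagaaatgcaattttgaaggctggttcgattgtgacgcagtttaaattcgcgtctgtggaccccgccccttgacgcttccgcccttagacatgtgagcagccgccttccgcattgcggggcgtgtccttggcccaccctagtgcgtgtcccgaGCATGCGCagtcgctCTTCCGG
Mrps12 (chr7:28741772-28742071, minus strand): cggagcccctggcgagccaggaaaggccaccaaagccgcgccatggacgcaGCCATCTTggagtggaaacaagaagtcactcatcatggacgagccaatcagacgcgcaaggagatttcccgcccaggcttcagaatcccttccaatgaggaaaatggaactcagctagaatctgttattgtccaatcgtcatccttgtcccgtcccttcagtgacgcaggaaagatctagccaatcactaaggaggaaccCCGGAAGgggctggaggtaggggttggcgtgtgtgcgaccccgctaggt
Mrpl42 (chr10:95501900-95502199, minus strand): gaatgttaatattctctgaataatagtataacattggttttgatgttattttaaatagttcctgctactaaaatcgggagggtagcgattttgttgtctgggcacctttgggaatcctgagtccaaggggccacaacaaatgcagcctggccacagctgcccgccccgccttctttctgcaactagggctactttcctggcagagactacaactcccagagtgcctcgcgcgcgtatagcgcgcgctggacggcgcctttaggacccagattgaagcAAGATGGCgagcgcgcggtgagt
Mrpl36 (chr13:73330759-73331058, plus strand): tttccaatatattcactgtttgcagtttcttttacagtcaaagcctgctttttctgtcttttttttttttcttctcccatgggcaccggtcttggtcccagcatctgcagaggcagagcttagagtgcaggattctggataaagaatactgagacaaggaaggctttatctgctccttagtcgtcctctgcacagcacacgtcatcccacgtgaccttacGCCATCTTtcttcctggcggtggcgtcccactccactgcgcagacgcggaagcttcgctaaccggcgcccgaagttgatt

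The Mrpl33 window held an NRF1 core that begins 12 bases before the start and an ETS core beginning 3 bases before it, and that of Mrps21 held an ETS core 18 bases after its start. Mrps18b held 2 NRF1 cores and an ETS core. Mrps12 held an ETS core 1 base after the start and a YY1 core 199 bases before it, while Mrpl42 and Mrpl36 held only a YY1 core of these 3. The 69 genes had 75 promoters, which were searched on both strands. CCGGAAG stood in a promoter of 26 genes (37.7%, exact 95% binomial interval 26.3 to 50.2%), against 19.4% of the 10457 matched genes that were tested and 12.8% of all 17601 matched genes. AAGATGGC stood in 12 (17.4%, 9.32 to 28.4%), against 5.20% of tested and 3.62% of all genes. GCGCATGC stood in 8 (11.6%, 5.14 to 21.6%), against 5.83% of tested and 3.99% of all genes. At least 1 of the 3 cores was found in 38 of 69 Mrp genes (55.1%), against 27.5% of tested genes. Shares for the motifs CACGTG (the E-box, 5 genes, 7.25%) and GGGCGG (the GC box, 34 genes, 49.3%) lay below those of tested genes, 11.6% and 66.3%. No motif contains another, and a gene was counted once per motif if any of its promoters held it. The intervals cover counting error only, promoters that are shared by neighbouring genes are not independent, and a match describes the letters of the window, not a bound factor.

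**Figure D1:**
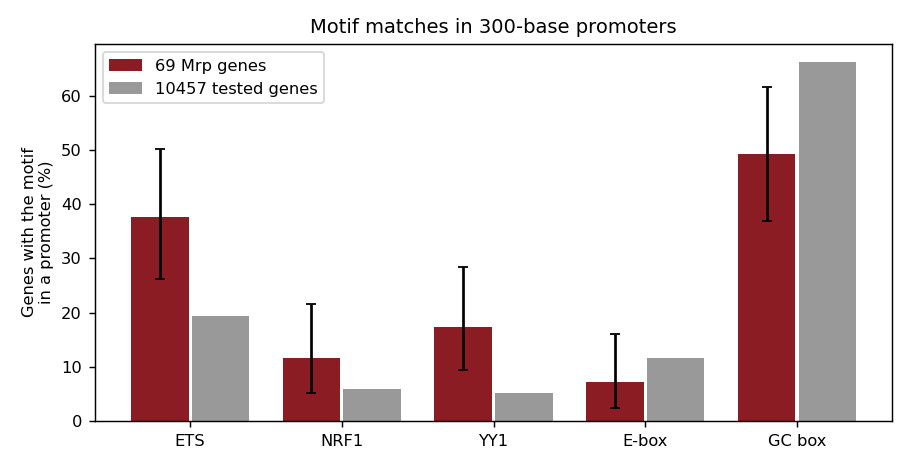
Share of genes (percent, y axis) with each motif family in a promoter on either strand, for the 69 matched Mrp genes and for the 10457 matched genes tested in the culture libraries. Error bars on the Mrp shares are exact 95% binomial intervals. The ETS, NRF1 and YY1 shares of the Mrp genes were 37.7%, 11.6% and 17.4%, above those of the tested genes, while the E-box and GC box shares were below.

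Of the 69 genes, 27 (39.1%) had the start of another gene on the opposite strand, lying from 1 kb before to 50 bases after their own, against 19.9% of tested genes. Mrpl46 and Mrps11, both members, start 42 bases apart, and Mrps12 starts 147 bases from Sars2, the mitochondrial seryl-tRNA synthetase. Partners also included Twnk, the mitochondrial DNA helicase, 116 bases from Mrpl43, Ndufb5, a complex I subunit, 308 bases from Mrpl47, and Ptcd2, 108 bases from Mrps27. Mrps12 had a log2 fold change of 1.53 ± 0.29 (SE, adjusted p = 0.000171) at 7 d over ex vivo, while Sars2 had -0.02 ± 0.18 (SE, adjusted p = 0.935) in the same comparison. Mrpl46 and Mrps11 had 1.25 and 0.70, and both passed the test.

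Levels between genes were compared in TPM, a unit that corrects for transcript length. Of the 78 genes, 77 or 78 had reads in every library, and 76 passed the filter on low counts; Mrpl23 and Mrps36 did not and were not tested. The median over the 76 genes was 13.4 TPM ex vivo, 11.1 TPM at 6 h, 22.5 TPM at 24 h, 20.3 TPM at 7 d with TGFβ, 26.99 TPM at 7 d without it and 31.8 TPM in lysate. Ex vivo, Mrpl24, a protein near the exit of the polypeptide tunnel in its bacterial counterpart, led with 100.4 ± 12.3 TPM (SD, n = 5), well above Mrps15 with 44.6 ± 10.1, Mrpl10 with 40.9 ± 3.096 and Mrpl37 with 39.8 ± 2.57 TPM, which lie within their spreads of each other. At 7 d Mrpl20 stood first with 86.2 ± 17.5 TPM, and Mrpl24 with 73.8 ± 10.9, Mrpl33 with 65.8 ± 26.4 and Mrpl52 with 62.8 ± 30.1 TPM followed, all with spreads that overlap with its own. Mrps33 was the lowest of the tested genes ex vivo, with 2.56 ± 0.714 TPM.

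Together the 78 genes made up a small and changing part of the counted reads. Their summed level was 934, 888, 1179, 745 and 824 CPM in the ex vivo libraries, 772 and 820.5 CPM at 6 h, 1237, 1418 and 1378 CPM at 24 h and 1306, 2006, 1865, 1557 and 1269 CPM at 7 d. The 6 h libraries lay inside the ex vivo range, and all 24 h and 7 d libraries lay above the highest ex vivo library, replicate 3. These sums use library totals. With TMM scaling, which was used for the tests, the mean sum was 996 CPM at 6 h and 864 CPM ex vivo. The order of these 2 means thus depended on the scaling. At 7 d, replicates 2 and 3 stood apart from replicates 1, 4 and 5, and the same 2 libraries had the highest summed levels of proliferation genes (1644 and 814 CPM) and of cytosolic ribosomal proteins (6473 and 6580 CPM, against 2377 to 3124 CPM in the other 3). The part of these differences in the 7 d results was not tested, so counts of Mrp genes called are also given without both libraries. No such counts are given for the other gene lists, the transcript length bins or the overlap between libraries.

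**Figure D2:**
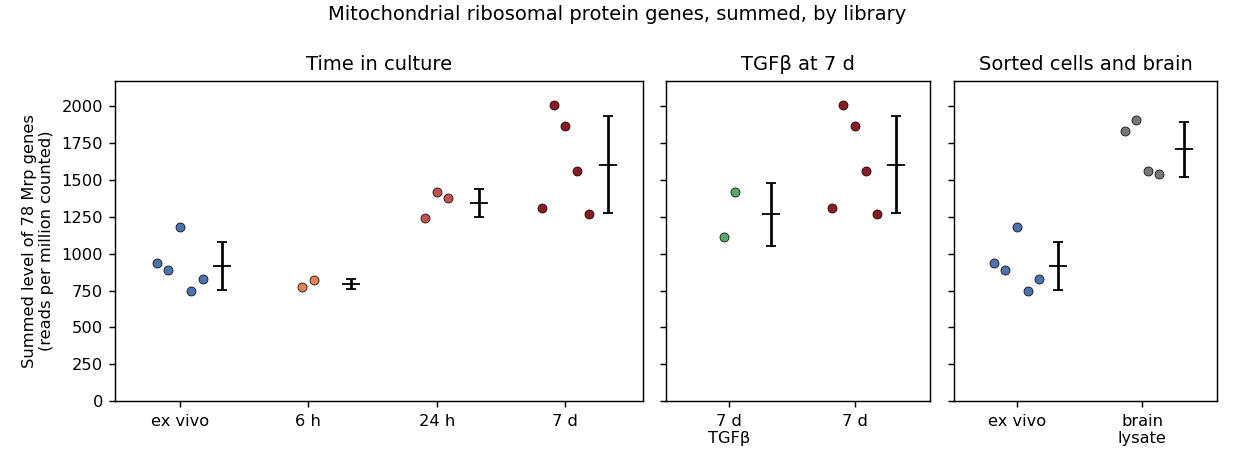
Summed level of the 78 Mrp genes per library (CPM on library totals, y axis), in 3 panels: ex vivo, 6 h, 24 h and 7 d; 7 d with TGFβ and 7 d without it; ex vivo and brain lysate. Dots are libraries and bars are group means with their SD; the means were 914 ± 164 CPM ex vivo (n = 5), 796 ± 34.2 at 6 h (n = 2), 1344 ± 95.1 at 24 h (n = 3), 1601 ± 329 at 7 d (n = 5), 1265 ± 214 at 7 d with TGFβ (n = 2) and 1706 ± 186 in lysate (n = 4).

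Relative to ex vivo microglia, the Mrp genes split in both directions at 6 h, while 39 of 76 were higher at 24 h and 68 of 76 at 7 d. Changes were tested with edgeR's quasi-likelihood test on read counts, with Benjamini-Hochberg adjustment over all 13840 genes tested and a threshold of 0.05; a gene that passed is called higher or lower. The 3 comparisons share the ex vivo libraries, so their values are given side by side and not correlated. By call at 6 h, 24 h and 7 d, 16 genes were higher at each time (Mrpl9, Mrpl12, Mrpl17, Mrpl20, Mrpl21, Mrpl39, Mrpl45, Mrpl46, Mrpl51, Mrpl54, Mrps6, Mrps7, Mrps18a, Mrps18b, Mrps22 and Mrps27). Another 21 were higher at 24 h and 7 d (Mrpl1, Mrpl13, Mrpl14, Mrpl15, Mrpl18, Mrpl28, Mrpl30, Mrpl32, Mrpl33, Mrpl35, Mrpl40, Mrpl41, Mrpl42, Mrpl49, Mrpl50, Mrps10, Mrps12, Mrps18c, Mrps23, Mrps24 and Mrps28). A further 18 were higher at 7 d alone (Mrpl2, Mrpl3, Mrpl11, Mrpl16, Mrpl19, Mrpl27, Mrpl43, Mrpl48, Mrpl52, Mrpl55, Mrpl58, Mrps9, Mrps11, Mrps15, Mrps16, Mrps21, Mrps31 and Mrps34). A set of 10 was lower at 6 h, not called at 24 h and higher at 7 d (Mrpl4, Mrpl22, Mrpl34, Mrpl36, Mrpl44, Mrpl53, Mrpl57, Mrps14, Mrps17 and Mrps33), with median log2 fold changes of -1.05, 0.12 and 0.85. Mrpl47, Mrps26 and Mrps30 were higher at 6 h and 7 d, Mrpl38 and Mrps2 at 6 h and 24 h. Mrpl10, Mrpl24, Mrpl37 and Mrps35 were lower at 6 h and not called later, Mrps25 was lower at 7 d alone, and Mrps5 was called at no time. These sets come from the calls themselves and are a description; a gene called at one time and not at another was not tested for a difference between the times here. Some single calls behind them depended on the settings: Mrpl53 was called at 7 d in 4 of 20 alternatives, Mrpl46 at 6 h in 9 of 16 and Mrpl24 at 6 h in 10 of 16.

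**Figure D3:**
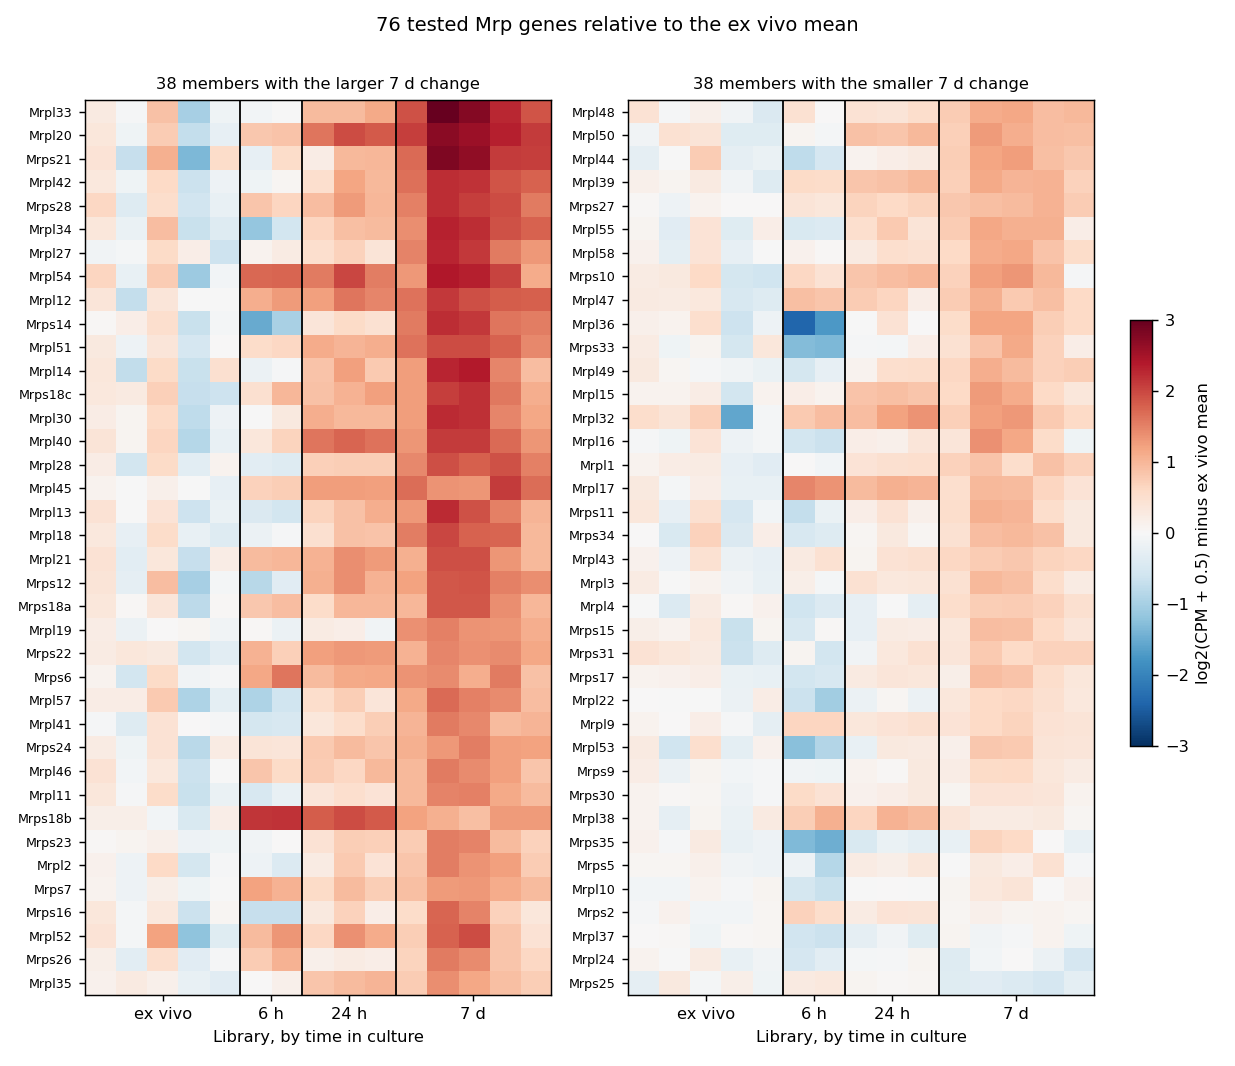
Levels of the 76 tested Mrp genes in 15 libraries as log2(CPM + 0.5) minus the gene's ex vivo mean (colour), with 38 genes in each panel, sorted by their change at 7 d, and libraries in the order ex vivo, 6 h, 24 h and 7 d. The 2 columns at 6 h hold both signs, whereas 73 of 76 genes had a positive log2 fold change at 7 d.

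At 6 h, 21 of the 76 genes were called higher and 14 lower than ex vivo, a share close to the background for the higher calls and below it for the lower ones, since 31.2% of all tested genes were higher and 36.8% lower. The median log2 fold change of the Mrp genes was -0.05 beside -0.17 over all genes. Mrps18b, 1 of 3 paralogs of the bacterial protein bS18, rose most among the genes named. It had 7.19, 7.19, 5.89, 4.44 and 7.28 CPM in the ex vivo libraries, 29.3 and 29.99 CPM at 6 h, 23.6, 25.8 and 23.8 CPM at 24 h and 15.3, 13.7, 12.3, 16.04 and 16.04 CPM at 7 d, so that both 6 h libraries lay above every other library of the time course. Its log2 fold change at 6 h was 2.21 ± 0.19 (SE, adjusted p = 1.78e-08). Mrpl54 rose by 1.68 ± 0.42 (SE, adjusted p = 0.00206) and Mrps6 by 1.44 ± 0.25 (SE, adjusted p = 9.00e-05) on the same scale. Mrpl17 was counted at 51.1 and 47.5 CPM at 6 h, against 22.3, 17.6, 21.01, 15.6 and 15.6 CPM ex vivo, and its log2 fold change was 1.42 ± 0.17 (SE, adjusted p = 1.50e-06).

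Mrpl36, the small zinc-binding protein bL36 of the large subunit, moved the other way. It had 11.4, 11.1, 14.9, 6.52 and 9.28 CPM in the ex vivo libraries, 1.59 and 2.76 CPM at 6 h, 10.2, 14.03 and 10.4 CPM at 24 h and 15.2, 24.03, 24.1, 17.6 and 15.9 CPM at 7 d. The 6 h libraries lay below all others and the 7 d libraries above all ex vivo ones. Its log2 fold change was -2.302 ± 0.34 (SE, adjusted p = 1.21e-05) at 6 h over ex vivo, and 2.42 ± 0.35 (SE, adjusted p = 5.06e-05) at 24 h over 6 h. Mrpl53 was lower at 6 h with a log2 fold change of -1.18 ± 0.30 (SE, adjusted p = 0.00221), as were Mrpl37 (-0.62 ± 0.13 (SE, adjusted p = 0.000515)), Mrpl10, the anchor of the stalk (-0.61 ± 0.13 (SE, adjusted p = 0.000417)), and Mrpl44, which carries an RNase III-like fold (-0.73 ± 0.27 (SE, adjusted p = 0.02500)). Mrpl24, highest ex vivo in TPM, had 52.4, 48.5, 57.7, 41.5 and 44.8 CPM in the ex vivo libraries, 34.01 and 38.9 CPM at 6 h, 46.9, 47.4 and 51.8 CPM at 24 h and 37.3, 46.2, 49.3, 43.3 and 33.9 CPM at 7 d, with both 6 h libraries below the ex vivo range and the 24 h libraries inside it. Another counted gene overlaps Mrpl24, Mrpl37, Mrpl44 and Mrpl53, so their counts are uncertain.

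The direction of the family at 6 h depended on the scaling. With library totals in place of TMM factors the all-gene median moved to -0.57, the counts became 7 higher and 29 lower, and the share of higher calls among all calls was 32.7%, against 45.8% with TMM. Relative to the median of all genes, the Mrp median was 0.12 higher with TMM and 0.11 higher with totals. With only 1 of the 2 libraries at 6 h, 8 genes (without replicate 1) or 9 (without replicate 2) were lower in place of 14. Mrpl44 was then not called (adjusted p of edgeR's test 0.206 and 0.0641), nor was Mrps18a (0.0501 and 0.0877), nor Mrpl53 without replicate 1 (0.0538). With library totals Mrps18a was not called either (0.42, adjusted p = 0.246), while Mrpl11 (-0.85, adjusted p = 0.0232) and Mrps12 (-1.22, adjusted p = 0.0228) were lower. Mrps12 was also lower without ex vivo replicate 4 (-0.98, adjusted p = 0.01799), and on log2(TPM + 1) (-0.94, adjusted p of limma 0.0305), and was not called with TMM and all libraries (-0.81 ± 0.41 (SE, adjusted p = 0.08798)).

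At 24 h, 39 of 76 genes were higher than ex vivo and 0 lower, against 29.6% higher and 33.1% lower over all tested genes. Only 1 gene was lower at an unadjusted p under 0.05 by edgeR, and DESeq2 called 1 lower. The median log2 fold change was 0.57 beside -0.06 over all genes. Mrpl20 had 8.03, 5.63, 10.9, 3.58 and 5.23 CPM in the ex vivo libraries, 11.2 and 11.7 CPM at 6 h, 20.1, 25.7 and 23.7 CPM at 24 h and 27.7, 43.6, 39.1, 33.3 and 28.2 CPM at 7 d. From 6 h on every library lay above every ex vivo one, and the 24 h libraries did not overlap with those at 6 h. Its log2 fold change at 24 h was 1.78 ± 0.25 (SE, adjusted p = 1.09e-05). Mrpl54 rose by 1.66 ± 0.38 (SE, adjusted p = 0.001198), Mrpl40 by 1.65 ± 0.28 (SE, adjusted p = 8.83e-05) and Mrps12 by 1.09 ± 0.32 (SE, adjusted p = 0.007099).

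Between 6 h and 24 h, 33 genes were higher at 24 h and 0 lower by edgeR, against 22.0% and 19.8% of all tested genes, with a median log2 fold change of 0.52. By edgeR 2 were lower at an unadjusted p under 0.05, and DESeq2 called 7 lower. Besides Mrpl36 the higher genes included Mrps14 (1.86 ± 0.33 (SE, adjusted p = 0.000311)), Mrpl13 (1.47 ± 0.38 (SE, adjusted p = 0.00544)) and Mrps12 (1.901 ± 0.45 (SE, adjusted p = 0.00268)). Mrps12 lies at the decoding centre of the small subunit and had 6.402, 3.88, 9.44, 2.15 and 4.56 CPM in the ex vivo libraries, 2.44 and 3.68 CPM at 6 h, 10.5, 13.3 and 10.4 CPM at 24 h and 11.6, 18.6, 18.9, 14.6 and 13.4 CPM at 7 d. Its 24 h libraries lay above both 6 h libraries and above every ex vivo one. Mrpl12, Mrps18a, Mrps18b and Mrps18c were not called, with log2 fold changes of 0.26, 0.01, -0.28 and 0.32. With library totals 51 genes were higher; the all-gene median then moved to 0.44 and 79.1% of all calls were higher, against 52.7% with TMM. The count fell to 11 without 6 h replicate 1, to 14 without 6 h replicate 2 and to 20 without 24 h replicate 2. Mrpl11 (0.82 ± 0.30 (SE, adjusted p = 0.0371)) lost its call in each of the 5 fits without 1 library (adjusted p = 0.05001 to 0.232), Mrps12 was not called without the first (adjusted p = 0.0551, edgeR) and Mrpl13 not without the second (0.0504).

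At 7 d, 68 of 76 genes were higher than ex vivo and 1 lower, against 34.8% higher and 35.7% lower over all tested genes. The median log2 fold change was 1.03 beside -0.02 over all genes. Of the 76 genes, 39 were called higher with an estimate of at least 2-fold, against 2749 of all 13840 tested genes. For 55 genes all 7 d libraries lay above all ex vivo libraries, which was so for 26.1% of all tested genes. Genes named Mrpl (44 higher of 48, median 1.03) and genes named Mrps (24 higher and 1 lower of 28, median 0.997) had medians close to each other. Genes numbered after a bacterial ribosomal protein were higher in 39 of 43 cases with a median of 1.13, and genes numbered above the bacterial series, which encode proteins added in mitochondria, in 29 of 33 with a median of 0.96. Without replicates 2 and 3, a choice made after seeing the data, 54 genes were higher and 2 lower with a median of 0.82.

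Mrpl33, a small protein of the large subunit, had 3.62, 2.81, 5.73, 1.22 and 2.61 CPM in the ex vivo libraries, 2.73 and 2.87 CPM at 6 h, 6.06, 6.01 and 6.96 CPM at 24 h and 12.2, 28.9, 22.6, 15.8 and 11.99 CPM at 7 d. All 7 d libraries exceeded all others, and replicates 2 and 3 were the highest. Its level averaged 18.3 ± 7.31 CPM at 7 d and 3.198 ± 1.66 CPM ex vivo (SD, n = 5 each), a log2 fold change of 2.49 ± 0.33 (SE, adjusted p = 4.52e-06). Mrps21, a small-subunit protein of the bacterial set, had 2.88, 1.06, 4.799, 0.501 and 3.22 CPM in the ex vivo libraries, 1.64 and 3.22 CPM at 6 h, 2.48, 4.48 and 4.55 CPM at 24 h and 7.77, 17.1, 15.6, 10.3 and 10.1 CPM at 7 d. Again the 7 d group did not overlap with the others, and the fold change was 2.25 ± 0.43 (SE, adjusted p = 0.000208) on the log2 scale. Mrpl42 had 6.68, 4.81, 8.27, 3.22 and 4.67 CPM in the ex vivo libraries, 4.82 and 5.51 CPM at 6 h, 7.68, 12.7 and 10.9 CPM at 24 h and 17.6, 26.3, 25.4, 20.7 and 19.2 CPM at 7 d, with all 7 d libraries above all earlier ones. Its log2 fold change was 1.97 ± 0.23 (SE, adjusted p = 1.09e-06). That of Mrpl20, described above, was 2.35 ± 0.23 (SE, adjusted p = 1.48e-07).

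The ribosomal stalk, which recruits translation factors, was represented by Mrpl12, its flexible part, and by Mrpl10 and Mrpl11 at its base. Mrpl12 had 10.7, 4.88, 10.8, 8.24 and 8.17 CPM in the ex vivo libraries, 18.3 and 20.7 CPM at 6 h, 20.2, 26.3 and 23.7 CPM at 24 h and 26.5, 37.7, 32.9, 30.3 and 30.04 CPM at 7 d. Every cultured library lay above every ex vivo one, and the log2 fold changes over ex vivo were 1.18 ± 0.22 (SE, adjusted p = 0.000179) at 6 h, 1.44 ± 0.20 (SE, adjusted p = 7.70e-06) at 24 h and 1.87 ± 0.18 (SE, adjusted p = 1.07e-07) at 7 d. Mrpl11 was not called at 6 h (-0.44 ± 0.28 (SE, adjusted p = 0.166)) or 24 h (0.38 ± 0.23 (SE, adjusted p = 0.163)) and rose at 7 d (1.21 ± 0.20 (SE, adjusted p = 5.68e-05)). Without ex vivo replicate 3, Mrpl11 passed at 24 h (0.56, adjusted p = 0.0334), and without ex vivo replicate 4 it passed as lower at 6 h (-0.56, adjusted p = 0.0466). Mrpl10 was not called at 7 d (0.19 ± 0.09 (SE, adjusted p = 0.0764)).

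The 3 paralogs of bS18 each have a place of their own in the mammalian mitochondrial ribosome. Mrps18b, with the values above, was highest at 6 h and stood at 1.93 ± 0.17 (SE, adjusted p = 3.79e-08) at 24 h and 1.19 ± 0.15 (SE, adjusted p = 2.84e-06) at 7 d over ex vivo. Mrps18a had 14.2, 11.3, 14.4, 6.16 and 11.4 CPM in the ex vivo libraries, 19.6 and 21.3 CPM at 6 h, 16.5, 22.5 and 22.6 CPM at 24 h and 22.4, 41.4, 41.2, 29.7 and 22.4 CPM at 7 d. Its log2 fold changes were 0.83, 0.83 and 1.45 ± 0.23 (SE, adjusted p = 2.81e-05) at 6 h, 24 h and 7 d, and all 3 passed. Mrps18c had 3.201, 3.13, 4.44, 1.36 and 1.45 CPM in the ex vivo libraries, 3.68 and 5.51 CPM at 6 h, 5.04, 5.63 and 6.57 CPM at 24 h and 6.66, 12.2, 13.2, 8.51 and 5.85 CPM at 7 d. Its 6 h and ex vivo libraries overlapped. It was not called at 6 h (0.74 ± 0.41 (SE, adjusted p = 0.1202)) and was higher at 24 h (1.06 ± 0.36 (SE, adjusted p = 0.0166)) and 7 d (1.76 ± 0.32 (SE, adjusted p = 0.000137)). It passed at 6 h without ex vivo replicate 3 (1.009, adjusted p = 0.0322) and failed at 24 h without 24 h replicate 3 (0.98, adjusted p = 0.0525).

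Between 24 h and 7 d, 29 genes were higher at 7 d and 4 lower, against 27.2% and 21.6% of all tested genes; the median was 0.44. The higher ones included Mrps21 (1.66 ± 0.50 (SE, adjusted p = 0.0121)), Mrpl33 (1.53 ± 0.38 (SE, adjusted p = 0.00341)), Mrps14 (1.41 ± 0.25 (SE, adjusted p = 0.000211)) and Mrpl27, close to the peptidyl transferase centre in its bacterial counterpart (1.37 ± 0.30 (SE, adjusted p = 0.00135)). Mrpl11 was higher as well (0.83 ± 0.24 (SE, adjusted p = 0.00861)), but not without 7 d replicates 2 and 3 (0.59, adjusted p = 0.0677), and Mrpl12 (0.43), Mrps12 (0.44), Mrps18a (0.61) and Mrps18c (0.69) were not called. Mrps18a passed without 7 d replicate 1 (0.71, adjusted p = 0.0346) or replicate 5 (0.71, adjusted p = 0.0324). The 4 lower ones were Mrps18b (-0.74 ± 0.17 (SE, adjusted p = 0.00176)), Mrpl38 (-0.66 ± 0.14 (SE, adjusted p = 0.000943)), Mrps25 (-0.44 ± 0.11 (SE, adjusted p = 0.00461)) and Mrps2 (-0.26 ± 0.10 (SE, adjusted p = 0.0356)). Mrps25 had 53.9, 79.3, 62.1, 72.7 and 58.9 CPM in the ex vivo libraries, 78.4 and 81.3 CPM at 6 h, 68.5, 66.3 and 66.9 CPM at 24 h and 50.5, 50.9, 48.5, 45.5 and 52.95 CPM at 7 d. All 7 d libraries lay below all others, and its log2 fold change over ex vivo was -0.40 ± 0.10 (SE, adjusted p = 0.00207). Another counted gene overlaps Mrps25, so its counts are uncertain. The number of higher genes rested on single libraries: it was 12 without 24 h replicate 1, 16 without 24 h replicate 3, 18 without 7 d replicate 2, 18 without 7 d replicate 3, and 9 without both of these 7 d libraries. Leaving out 24 h replicate 1 ended the call of Mrps21 (adjusted p = 0.0685), as did leaving out both 7 d replicates 2 and 3 (1.27, adjusted p = 0.0688), and Mrps2 was not called in 6 of the 8 fits that left out a library.

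**Figure D4:**
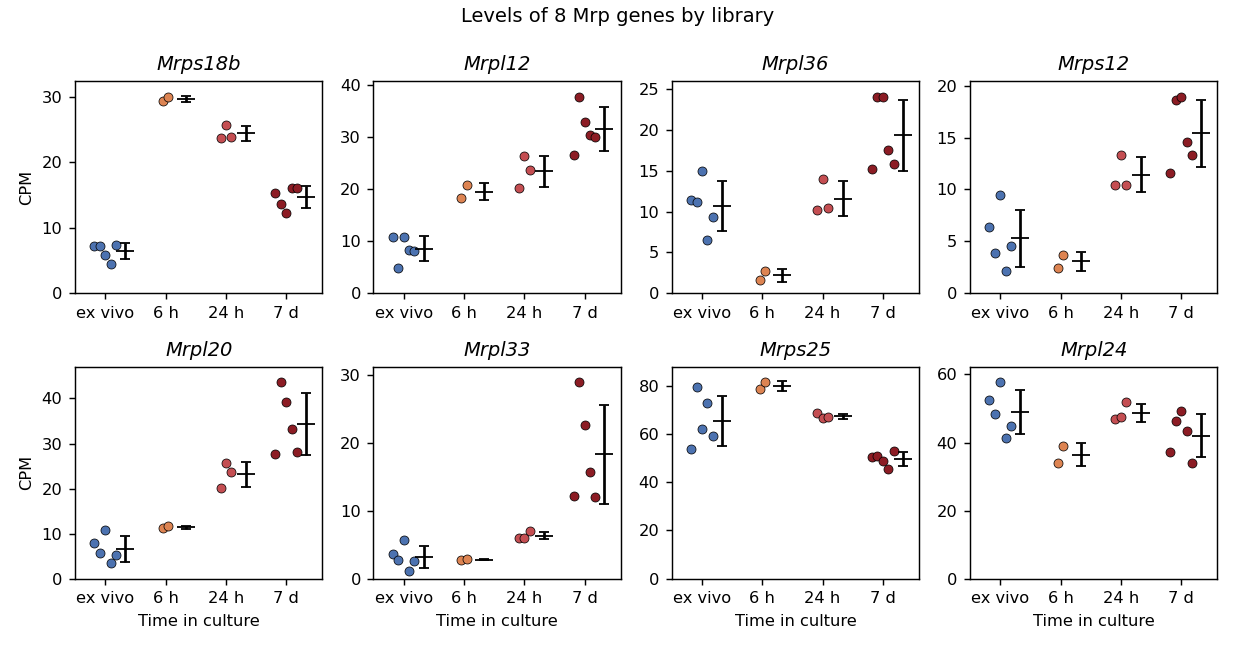
Levels of 8 Mrp genes per library (CPM with TMM scaling, y axis) ex vivo, at 6 h, 24 h and 7 d. Dots are libraries; Mrps18b was highest at 6 h, Mrpl36 lowest there, Mrpl12, Mrpl20 and Mrpl33 highest at 7 d, and Mrps25 lowest at 7 d.

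Other genes of the mitochondrial translation pathway were mostly lower at 6 h. Of 23 tested assembly factors, 15 were lower and 1 higher at 6 h than ex vivo (median -0.81), against 36.8% lower and 31.2% higher over all tested genes. They included Mtg1, a GTPase of large-subunit assembly (-3.52 ± 0.32 (SE, adjusted p = 5.17e-08)), and Mettl17, needed for the small subunit (-1.68 ± 0.18 (SE, adjusted p = 2.70e-07)). Of 17 mitochondrial aminoacyl-tRNA synthetases, 12 were lower and 0 higher (median -0.69). Vars2 stood at -2.88 ± 0.19 (SE, adjusted p = 8.94e-10). Of 13 translation factors, 8 were lower and 0 higher, including the initiation factor Mtif2 (-1.55 ± 0.18 (SE, adjusted p = 1.20e-06)). With library totals 18 assembly factors, 16 synthetases and 10 translation factors were lower, and with relative-log-expression size factors 14, 11 and 6. At 24 h over 6 h, 16 assembly factors, 11 synthetases and 6 translation factors were higher, and 0 of each were lower, by edgeR, against 22.0% higher and 19.8% lower over all genes; DESeq2 called 1 assembly factor and 1 translation factor lower. The assembly factors Ddx28 and Mtg1 had log2 fold changes of 2.72 and 2.48 there. Of 5 mitoribosome proteins with other symbols, 0 were called at 24 h over 6 h. Over ex vivo, unlike the lists above, 4 of 5 were higher at 6 h (1 of 5 with library totals) and 4 of 5 at 7 d. Chchd1 had 1.39 ± 0.34 (SE, adjusted p = 0.00178) and 2.28 ± 0.28 (SE, adjusted p = 1.84e-06).

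At 7 d the same lists were mixed, with shares near the background of 34.8% higher and 35.7% lower in several of them. Over ex vivo, 9 assembly factors were higher and 7 lower (median 0.17), 5 translation factors were higher and 2 lower (0.19). Likewise 5 synthetases were higher and 5 lower (-0.02), and 5 of 18 genes of mitochondrial DNA and RNA maintenance were higher and 7 lower (-0.23). The elongation factors Gfm1 (1.17 ± 0.09 (SE, adjusted p = 5.83e-09)) and Tsfm (1.13 ± 0.21 (SE, adjusted p = 0.000150)) were higher, and the synthetases Vars2 (-1.17 ± 0.12 (SE, adjusted p = 1.96e-07)) and Wars2 (-0.996 ± 0.14 (SE, adjusted p = 1.03e-05)) lower. By contrast 73 of 78 respiratory chain subunits were higher and 1 lower, with a median of 1.904. Of 80 cytosolic ribosomal proteins, 50 were higher and 10 lower, with a median of 1.43; many of these have processed pseudogenes and their counts are uncertain. At 24 h the respiratory chain counts were 46 higher and 1 lower (median 0.79).

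Among 10 tested nuclear regulators of mitochondrial genes, 4 were higher and 1 lower at 6 h, the higher share being close to the background of 31.2%, and with library totals 2 were higher and 1 lower. The coactivator Pprc1 averaged 454 ± 22.6 CPM at 6 h (SD, n = 2) and 109 ± 15.8 CPM ex vivo (SD, n = 5), a log2 fold change of 2.06 ± 0.17 (SE, adjusted p = 1.97e-08), and Yy1 had 1.27 ± 0.20 (SE, adjusted p = 2.28e-05). Ppargc1b, another coactivator of the family, was lower (-3.04 ± 0.40 (SE, adjusted p = 4.14e-06)). At 7 d 0 of 10 were higher and 3 lower (30%), against 34.8% higher and 35.7% lower over all tested genes. The lower share was thus not above the background. The 3 were Myc (-1.28 ± 0.39 (SE, adjusted p = 0.00813)) and the GABP subunits Gabpb1 (-0.49 ± 0.12 (SE, adjusted p = 0.001804)) and Gabpb2 (-0.42 ± 0.16 (SE, adjusted p = 0.02400)). The median 7 d change was 1.17 in the 26 Mrp genes with the ETS core in their promoter (0.49 to 2.49) and 0.90 in the 41 without (-0.40 to 2.35). For the NRF1 core it was 0.76 in the 8 genes with it and 1.095 in the 59 without, and for the YY1 core 0.98 in 12 and 1.07 in 55. This is a description with no test, and the ranges overlap for all 3 motifs.

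**Figure D5:**
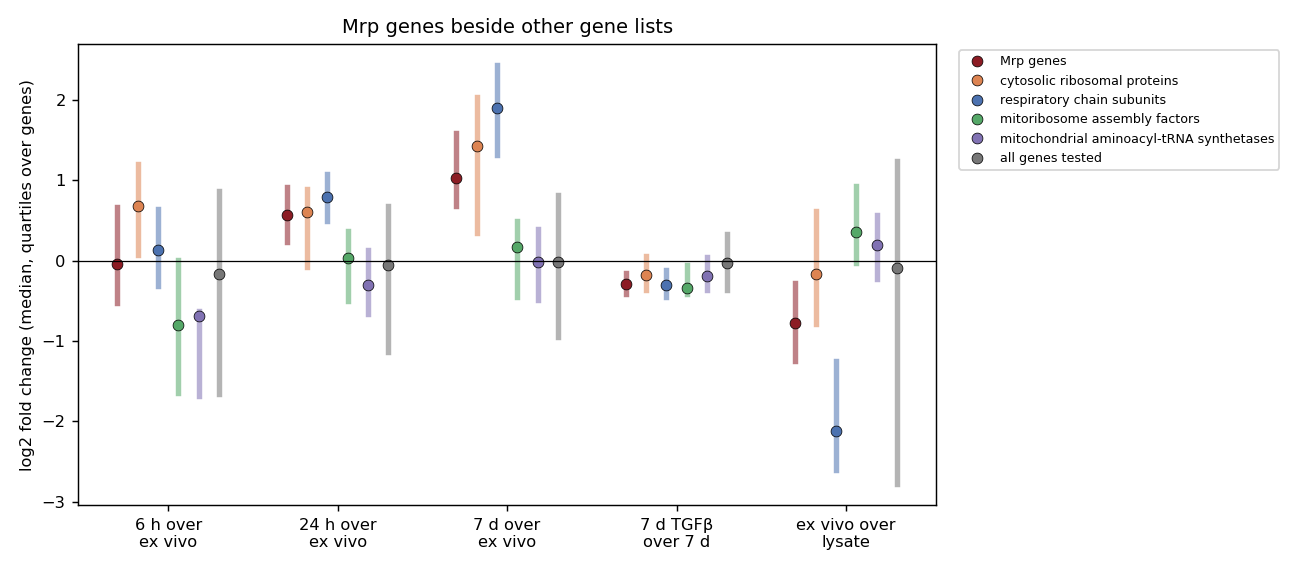
Median (point) and quartiles (bar) of the log2 fold change (y axis) for the Mrp genes, cytosolic ribosomal proteins, respiratory chain subunits, mitoribosome assembly factors, mitochondrial aminoacyl-tRNA synthetases and all genes tested, in 5 comparisons. At 6 h the assembly factors and synthetases had medians of -0.81 and -0.69 while the Mrp median was -0.05, and at 7 d the Mrp median was 1.03 and that of the respiratory chain 1.90.

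The Mrp transcripts are short, and short transcripts as a class were more often higher at 7 d than other genes. By a relative length from the ratio of CPM to TPM, 59 of 76 tested members fell into the shortest of 5 equal bins of genes. At 7 d over ex vivo, 54 of these 59 were higher and 0 lower by edgeR with a median log2 fold change of 1.095, while 56.3% of the other 2396 genes of that bin were higher and 19.3% lower, with a median of 0.68. At 24 h 28 of the 59 were higher, against 38.3% of the other genes of the bin. At 24 h over 6 h the numbers were 22 of the 59 against 27.2%. At 7 d over 24 h, 22 of the 59 were higher (37.3%) against 37.8% of the other genes, so members of this length were called higher there no more often than other genes of like length. Spearman's rho between relative length and the 7 d change was -0.42 over the 76 members and -0.24 over 12271 genes, which share libraries and depth. The part of transcript length in the result was not tested. Another counted gene overlaps 21 members and 4 have named pseudogenes, and the strand and multiple-match settings of the counting were not known here. Among the 55 members without an overlapping gene, 51 were higher and 0 lower at 7 d. Of the 21 overlapped members 17 were higher and 1, Mrps25, was lower. The overlapped members named Mrpl were Mrpl2, Mrpl14, Mrpl18, Mrpl19, Mrpl21, Mrpl24, Mrpl27, Mrpl37, Mrpl43, Mrpl44, Mrpl48, Mrpl49, Mrpl53 and Mrpl57. Those named Mrps were Mrps2, Mrps6, Mrps7, Mrps18a, Mrps23, Mrps25 and Mrps27.

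TGFβ, a cytokine of the brain that sustains microglial identity, was tested by adding it to the 7 d culture. The summed Mrp level was 1114 and 1416 CPM in the 2 libraries with TGFβ, against 1269 to 2006 CPM in the 5 without it. Of 76 genes, 0 were higher and 1 lower, against 9.57% higher and 6.52% lower over all tested genes. At an unadjusted p under 0.05, 13 passed by edgeR, 12 of them lower, and DESeq2 called 1 higher and 5 lower. The gene called was Mrpl1, of the mobile L1 stalk. It had 11.7 and 13.1 CPM with TGFβ, against 18.6, 20.6, 16.5, 20.9 and 18.5 CPM without it, with no overlap, and a log2 fold change of -0.62 ± 0.18 (SE, adjusted p = 0.0257). Its call was lost when TGFβ replicate 1 or 2 (adjusted p = 0.219 and 0.105) or 7 d replicate 4 (0.0538) was left out.

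The log2 fold change was negative in 68 of the 76 genes with a median of -0.29, beside -0.04 over all genes, and of -0.08 without the 7 d replicates 2 and 3. Library totals moved the share of higher calls over all genes to 47.1%, against 59.5% with TMM. Mrps11 had 17.5 and 20.6 CPM with TGFβ, against 10.01, 14.8, 14.3, 10.1 and 8.45 CPM without it, and did not pass (0.73 ± 0.27 (SE, adjusted p = 0.0807)), nor did Mrpl42 (-0.84 ± 0.30 (SE, adjusted p = 0.07098)) or Mrps18a (-0.77 ± 0.30 (SE, adjusted p = 0.0986)). Mrpl11, Mrpl12, Mrps12, Mrps18b and Mrps18c had log2 fold changes of -0.52, -0.17, -0.33, -0.28 and -0.38 and were not called. Of the other lists, 3 of 13 translation factors, 2 of 17 synthetases, 2 of 23 assembly factors and 7 of 78 respiratory chain subunits were lower, and 0 of any of them were higher by edgeR, beside the 6.52% and 9.57% of all genes given above. Gfm1 was among the lower ones (-0.65 ± 0.12 (SE, adjusted p = 0.001003)).

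Most Mrp genes had lower levels in ex vivo microglia than in brain lysate. In a separate fit of 9 libraries and 15335 tested genes, 3 Mrp genes were higher ex vivo and 52 lower, against 39.1% higher and 43.5% lower over all genes, with a median log2 fold change of -0.78 beside -0.10. For 45 genes all ex vivo libraries lay below all lysate libraries, which was so for 41.3% of all tested genes. Size factors of the relative-log-expression kind moved the all-gene median to -0.38 and the Mrp counts to 1 higher and 60 lower. Relative to all genes the Mrp median was -0.69 with TMM and -0.68 with those factors. Neuron markers, summed above, were far lower ex vivo, and the part of cell makeup in this comparison was not tested.

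Mrpl48 had 8.05, 5.73, 6.56, 5.43 and 4.25 CPM ex vivo, against 32.8, 29.7, 23.1 and 36.1 CPM in lysate, a log2 fold change of -2.33 ± 0.20 (SE, adjusted p = 4.13e-07). Mrps12 had 7.41, 4.500, 10.9, 2.505 and 5.36 CPM ex vivo, against 28.2, 29.1, 24.9 and 25.9 CPM in lysate (-2.12 ± 0.32 (SE, adjusted p = 6.06e-05)). Mrpl20 (-1.97 ± 0.27 (SE, adjusted p = 2.87e-05)), Mrpl27 (-1.91 ± 0.28 (SE, adjusted p = 3.94e-05)), Mrpl12 (-1.62 ± 0.24 (SE, adjusted p = 5.02e-05)), Mrpl11 (-1.37 ± 0.22 (SE, adjusted p = 0.000112)), Mrps18a (-1.16 ± 0.23 (SE, adjusted p = 0.000467)) and Mrps18c (-1.03 ± 0.34 (SE, adjusted p = 0.01405)) were lower too. Mrps18b was not called (0.35 ± 0.21 (SE, adjusted p = 0.133)). Another counted gene overlaps Mrpl24, Mrps2, Mrpl48, Mrpl27 and Mrps18a, so their counts are uncertain. Of the 21 overlapped members 2 were higher and 14 lower, and of the other 55 members 1 was higher and 38 lower. Mrpl24 went the other way. It had 60.6, 56.2, 66.6, 48.4 and 52.7 CPM ex vivo, against 28.4, 28.1, 23.5 and 23.6 CPM in lysate, with no overlap between the groups and a log2 fold change of 1.13 ± 0.13 (SE, adjusted p = 6.72e-06). The other 2 higher genes were Mrps2 (0.46 ± 0.11 (SE, adjusted p = 0.00238)), which was not called with those size factors (0.18, adjusted p = 0.159) or library totals (0.14, adjusted p = 0.274), and Mrps15 (0.49 ± 0.20 (SE, adjusted p = 0.0395)), which was called in 3 of 15 alternative settings (adjusted p = 0.0205 to 0.456).

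Lists around the ribosome differed in this comparison. Of 76 respiratory chain subunits 0 were higher and 74 lower ex vivo (median -2.12). By contrast 11 of 23 assembly factors were higher and 3 lower (0.36), 7 of 13 translation factors were higher and 3 lower (0.41) and 11 of 18 maintenance genes were higher and 3 lower (0.58), against 39.1% and 43.5% of all genes. These counts depended on the scaling: with relative-log-expression size factors they were 8 higher and 5 lower, 4 and 4, and 7 and 4, with medians of 0.07, 0.13 and 0.30. The counts of 1 translation factor called higher are uncertain, because it overlaps another counted gene.

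Chromatin at the starts of the Mrp genes was open both ex vivo and after 7 d. Peak lists, each called on pooled libraries of a condition and so without replicates, were compared within 1 kb of the start (the 7 d ATAC list includes a library labelled 8 d) for the 69 genes with a matched promoter. These genes had 75 promoters, and a gene was counted once if a peak lay at any of its starts. The numbers of starts given here are thus numbers of genes. ATAC peaks, which mark accessible DNA, lay at all 69 starts in each list (100%, exact 95% binomial interval 94.8 to 100%), against 88.5% of tested genes at 7 d and 87.9% ex vivo. H3K27ac, a mark of active promoters and enhancers, had peaks at 65 starts at 7 d (94.2%, 85.8 to 98.4%; tested genes 76.6%) and at all 69 ex vivo (tested genes 80.1%). The 4 starts with a peak only in the ex vivo list were those of Mrpl35, Mrps22, Mrps24 and Mrps31, whose RNA was higher at 7 d than ex vivo with log2 fold changes of 1.03, 1.33, 1.26 and 0.59. They are 5.80% of the 69 starts, a share close to the 6.95% of tested genes with such a peak only ex vivo. The lists held 31349 H3K27ac peaks with a median width of 1117 bp at 7 d and 24520 of 1777 bp ex vivo, and they give no height, so a gain or loss of signal within a peak could not be measured. H3K4me2 peaks stood at all 69 starts ex vivo (tested genes 91.4%), and peaks of PU.1, an ETS factor that defines macrophages and microglia, stood within 1 kb of 60 (87.0%, 76.7 to 93.9%), against 72.3% of tested genes. Of the 6 promoters printed above, that of Mrpl42 had no PU.1 peak.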

How the data were processed

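Whole-number read counts per gene symbol were deposited by the authors for 24537 symbols in 21 RNA libraries, and the authors also deposited a TPM table that they call trimmed; the trimming step was not described in the labels used. Peak positions were called with HOMER findPeaks on 1 pooled tag directory per condition, per the file headers, with input as background except for ATAC. Per the submitters' processing notes the build was mm10 and the tools included STAR, HOMER and R 3.3.1, with no role stated.

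The main test was that of edgeR 4.0.16 under R 4.3.3 (TMM, filterByExpr, robust quasi-likelihood F test, Benjamini-Hochberg adjustment, threshold 0.05), with 17 microglial libraries in 1 model of group means and ex vivo and lysate in another of 9. CPM of single genes use TMM-scaled library sizes, sums and markers use library totals, and SE is the log2 fold change over the square root of F. DESeq2 1.42.0, limma 3.58.1 on log2(TPM + 1), other size factors, other filters, a replicate block and leaving out libraries were alternatives. The scalings were applied to the other gene lists after seeing the data. The fits were checked on simulated data. Of seeded 2-fold changes, 32.7% were recovered with TGFβ over 7 d, 36.7% at 24 h over 6 h and 68% at 7 d over ex vivo. The other comparisons lay between 47.3% and 59.8%. A gene that was not called may therefore still differ, above all with TGFβ and at 24 h over 6 h. Intervals of shares cover counting error only. Members and gene lists were chosen with earlier results of these data known. Named in each comparison were Mrpl11, Mrpl12, Mrps12 and Mrps18a to Mrps18c, and of the members called the 4 largest rises and falls with a mean of at least 10 CPM and no overlap between groups. Other members and pathway genes were named by role, by level or after their values were seen. Promoters came from RefSeq; Mrpl4, Mrpl13, Mrpl15, Mrpl19, Mrpl38, Mrpl54, Mrps28, Mrps34 and Mrps35 had no entry used here. No genome or protein sequence was used.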

Additional observations from a re-analysis of the deposited data

Results flagged for a closer look

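Of 84 groups of 4 or 5 libraries examined for a library far from the others (27 named Mrp genes and the Mrp sum, ex vivo, at 7 d and in lysate), 1 was picked out, where chance gives about 1 in 20, or 4.2 of 84. Mrpl44, the RNase III-like protein of the large subunit, had 19.4 CPM in ex vivo replicate 3, against 9.17 to 11.2 CPM in the other 4 ex vivo libraries, a gap of 0.803 of the whole range with a critical value of 0.71. The same library had the highest summed Mrp level of the ex vivo group (1179 CPM). It also had the highest sums of neuron (60.4 CPM), astrocyte (381 CPM) and choroid plexus markers (127 CPM). Slc1a3 made up most of the ex vivo astrocyte sum (mean 190.6 CPM). The part of these cells in the Mrpl44 level of this library was not tested. Another counted gene overlaps Mrpl44, so its counts are uncertain.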

How the results depend on the processing

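With 1 library left out, the number of Mrp genes called higher ranged from 14 to 25 and lower from 8 to 17 at 6 h over ex vivo, from 34 to 52 and 0 to 1 at 24 h over ex vivo, from 63 to 68 and 1 to 2 at 7 d over ex vivo, from 11 to 27 and 0 to 0 at 24 h over 6 h, from 12 to 35 and 3 to 4 at 7 d over 24 h, from 0 to 1 and 0 to 2 with TGFβ over 7 d, and from 2 to 3 and 44 to 61 ex vivo over lysate. Relative-log-expression size factors gave 1 higher ex vivo over lysate, and lower counts of 1 at 24 h over ex vivo, 2 at 7 d over ex vivo and 5 at 24 h over 6 h. Library totals gave 7 higher and 29 lower at 6 h, 51 higher at 24 h over 6 h, 16 higher at 7 d over 24 h and 1 higher ex vivo over lysate. DESeq2 gave lower counts of 1 at 24 h and 2 at 7 d over ex vivo, 7 at 24 h over 6 h and 5 with TGFβ, where 1 was higher, and 1 higher ex vivo over lysate. On log2(TPM + 1), 8 were higher and 29 lower at 6 h, 1 lower at 24 h, 3 lower at 7 d, 16 higher at 7 d over 24 h, 10 lower with TGFβ and 1 higher ex vivo over lysate; a pseudocount of 0.1 gave 8, 29, 1, 3, 16 and 10 for the first 6 and 50 higher at 24 h over 6 h, and no filter on TPM gave 7, 27, 1, 3, 14 and 8 for the first 6. Groups fitted alone gave 3 lower at 24 h over 6 h and 2 lower with TGFβ, and Mrpl12 passed at 7 d over 24 h (0.37, adjusted p = 0.0371). At 7 d over ex vivo, 61 of 76 were higher on log2(TPM + 1) and 60 with the pseudocount of 0.1, in place of 68. With no filter on TPM 55 of 78 were higher there. Without 7 d replicates 2 and 3 there were 54 higher and 2 lower at 7 d over ex vivo, 9 higher at 7 d over 24 h and 1 higher with TGFβ. The replicate block gave 20 higher and 17 lower at 6 h, 35 and 0 at 24 h, 68 and 1 at 7 d, 30 and 1 at 24 h over 6 h, 41 and 3 at 7 d over 24 h, 0 and 3 with TGFβ and 2 and 47 ex vivo over lysate; under it Mrps18a (0.80, adjusted p = 0.0121) and Mrps18c (0.99, adjusted p = 0.00616) passed at 7 d over 24 h. No label pairs the libraries, and in no comparison with 3 or more pairs did every pair of same-numbered libraries correlate over 0.1; correlations ran from -0.22 to 0.24 there and at 6 h, but were 0.394 and 0.391 for the 2 pairs at 24 h over 6 h and 0.199 and 0.478 for the 2 with TGFβ. The longer cores CCGGAAGT and CGCATGCGC stood in the promoters of 12 and 7 Mrp genes. Of 1225 recomputed values of 73 named genes and comparisons, 0 changed sign past the threshold. Apart from Mrpl11, Mrpl12, Mrps12 and Mrps18a to Mrps18c, these were named for large called changes in the same data. Their signs were thus likely to hold, and the counts do not describe members that were not named. With 1 library left out, 23 of 570 values lost their call and 6 gained one. In the other settings 13 of 655 lost it and 12 gained one. The cause of these changes was not tested. With 2 libraries at 6 h and with TGFβ, and with depth unequal between genes, low members such as Mrps33 are the least precise.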

Other observations

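Genes that copy, transcribe or process mitochondrial nucleic acids were part of a list of 18 tested maintenance genes. At 6 h over ex vivo, 2 were higher and 4 lower by edgeR's quasi-likelihood test, against 31.2% and 36.8% of all tested genes, and with library totals 1 was higher and 11 lower. Trmt10c, a subunit of the mitochondrial RNase P, had a log2 fold change of 1.51 ± 0.24 (SE, adjusted p = 3.25e-05), while Polg2, the accessory subunit of the mitochondrial DNA polymerase, had -2.79 ± 0.57 (SE, adjusted p = 0.000395) and the helicase Twnk -1.06 ± 0.20 (SE, adjusted p = 0.000162). At 7 d over ex vivo, Slirp, which stabilises mitochondrial messenger RNA, had 1.94 ± 0.33 (SE, adjusted p = 7.55e-05) and Hsd17b10, another RNase P subunit, 1.44 ± 0.21 (SE, adjusted p = 1.41e-05), whereas Twnk had -1.17 ± 0.14 (SE, adjusted p = 1.67e-06). With TGFβ over 7 d without it, Polg, the catalytic subunit of the polymerase, was the single higher gene of this list (0.55 ± 0.14 (SE, adjusted p = 0.0125)). Twnk starts 116 bases from Mrpl43 on the other strand, and Mrpl43 had 0.68 ± 0.14 (SE, adjusted p = 0.000305) at 7 d. Twnk is also the counted gene that overlaps Mrpl43, so the counts of both are uncertain. The genes of this paragraph were named after their values were seen.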
